A study of Mus musculus with 8 samples.

Results

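Cytoplasmic polyadenylation regulators were examined in mouse oocytes arrested at metaphase of the second meiotic division (MII) from young and old females. The set comprised 9 genes, taken by symbol: the CPEB family members Cpeb1, Cpeb2 and Cpeb4, the RNA-binding partners Dazl, Msi1, Msi2 and Pum2, and the polyadenylation factors Papola and Sympk. Of the 9 genes, 7 were listed in both deposited tables, Cpeb2 was listed only among the 10530 genes of the total mRNA table, and Msi1 was in neither. The table of ribosome-bound mRNA held 8898 genes, and 8537 genes were in both tables. Every listed gene had at least 1 CPM (reads relative to library size) in 2 or more libraries of its table. Msi1, and Cpeb2 in ribosome-bound mRNA, have no value and were not analysed here.

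The oocytes came from RiboTag F/F;Zp3-Cre females on a C57BL/6 background, young (1 month) or old (12 to 15 months, retired breeders). All mice of both ages carried the same alleles: Cre driven by the Zp3 promoter, which is active in growing oocytes, switched the ribosomal protein RPL22 to a hemagglutinin (HA)-tagged form there. Females received 5 IU PMSG and 10 IU hCG 48 h later, and ovulated oocytes were collected 13 h after hCG and pooled, 200 to a pool, into 2 old and 2 young pools. The input (total mRNA) was 10% of each lysate, and HA immunoprecipitation of the rest gave ribosome-bound mRNA, so that 4 pools yielded 8 libraries. The translation efficiency (TE) of a gene in a pool was its HA CPM divided by its input CPM.

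Transcription is silent in fully grown oocytes, and proteins needed for meiosis are made from stored mRNAs whose poly(A) tails are kept short and are lengthened in the cytoplasm. CPEB proteins bind the cytoplasmic polyadenylation element (CPE) in the 3'-UTR, hold the mRNA silent in one state and recruit polyadenylation in another. CPEB1 is the family member best known in maturing oocytes, where it is phosphorylated and largely degraded, and CPEB4 has been described as acting later in meiosis. DAZL, Musashi and Pumilio proteins bind neighbouring 3'-UTR sites and act with or against CPEB1. CPSF binds the poly(A) signal, symplekin (Sympk) is the scaffold that joins CPEB1 to CPSF, and Papola encodes the canonical poly(A) polymerase.

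Because CPEB mRNAs can themselves carry CPEs, the mRNA strand of each gene's longest 3'-UTR, as annotated on GRCm38 in GENCODE release M21, was searched for the CPE letters TTTTAT and TTTTAAT and the poly(A) signals AATAAA and ATTAAA. CPEs were present in 8 of the 9 genes, against 70.7% of the 7930 genes of both tables with an annotated 3'-UTR. Among genes with a 3'-UTR within 20% of the same length, 75.8% (for Cpeb1) to 98.3% (for Msi2) held a CPE, over these 8 genes. Cpeb2 held 24 CPEs in 3778 bases, Cpeb4 held 17 in 4102 bases, Msi2 held 16 in 5310 bases and Pum2 held 8 in 2861 bases. Papola held 7 in 1947 bases, Msi1 held 6 in 1895 bases, Dazl held 6 in 1854 bases and Cpeb1 held 4 in 1315 bases. Sympk had a 3'-UTR of 100 bases with no CPE. CPEs and poly(A) signals can share letters, and each was counted. The CPE closest to the 3' end of each gene is shown with its surroundings, since this end of the mRNA is where the polyadenylation machinery assembles. The CPE is in capitals, and each line is 30 bases of reference sequence read 5' to 3' on the mRNA strand.
Cpeb1: cttgacttttctTTTTAATttaacgattac
Cpeb2: taatttagtttaTTTTATtgttatcttcca
Cpeb4: gggtaattcattTTTTATtaaagtcatttt
Dazl: aagtcaaaattcTTTTATgtcaccaagtca
Msi1: tctttttccaggTTTTATtttgttttaaat
Msi2: tggaaagtataaTTTTATatttgtattttc
Pum2: tagaagggatttTTTTATtcgaggtctgca
Papola: ttttaaactaatTTTTATttttaaccagtt

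All of these windows lie in the 3'-UTR. On GRCm38 they are at chr7:81347257-81347286 (minus strand) for Cpeb1, chr5:43289554-43289583 (plus) for Cpeb2, chr11:31935406-31935435 (plus) for Cpeb4 and chr17:50279752-50279781 (minus) for Dazl. The others are at chr5:115455645-115455674 (plus) for Msi1, chr11:88339483-88339512 (minus) for Msi2, chr12:8751625-8751654 (plus) for Pum2 and chr12:105838018-105838047 (plus) for Papola. In Cpeb4 the poly(A) signal ATTAAA began 4 bases after the start of this CPE and shared letters with it, 217 bases from the annotated end. In Cpeb1 the last CPE began 249 bases from the end and 229 bases before the next poly(A) signal, and in Dazl these distances were 375 and 213 bases. In Msi1 and Msi2 the last CPE began 42 and 119 bases from the end, and 22 and 19 bases before a poly(A) signal. Only Msi1 and Msi2 had a CPE within 100 bases of a poly(A) signal near the annotated end, against 20.7% of all genes. In Papola and Pum2 the last CPE lay farthest from the end, at 778 and 945 bases.

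Long 3'-UTRs hold more CPEs by their length alone, so the counts were set beside genes whose 3'-UTR was within 20% of the same length. Of 899 such genes, 0% held as many CPEs as Cpeb2, and of 777 such genes, 0.515% held as many as Cpeb4. The median there was 5 CPEs for both lengths. The share that held as many was 3.43% for Msi2, 6.25% for Papola, 10.2% for Dazl, 11% for Msi1, 13.2% for Pum2 and 16.7% for Cpeb1. Per kb of 3'-UTR, Cpeb2 had 6.35 and Cpeb4 had 4.14 CPEs, against 1.44 over all genes of both tables. The DAZL-type letters TTTGTTT were found 17 times in Msi2 and at least once in every other gene but Sympk, against 47.3% of all genes. The Pumilio-type letters TGTANATA were found in Cpeb1, Cpeb2, Msi1, Msi2 and Pum2 itself, with 2 matches in Pum2, against 30.9% of all genes. Musashi-type letters (ATAGT or GTAGT) were found in 71.2% of all genes and in 7 of the 9, with 12 matches in Cpeb2, 11 in Cpeb4 and 0 in Msi1. Unlike the CPE counts, these other matches were not set beside genes of like length. The median 3'-UTR over genes of both tables was 1332 bases, shorter than most of those in the set. A match of letters is a description of the sequence and does not show that a protein binds there.

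**Figure D1:**
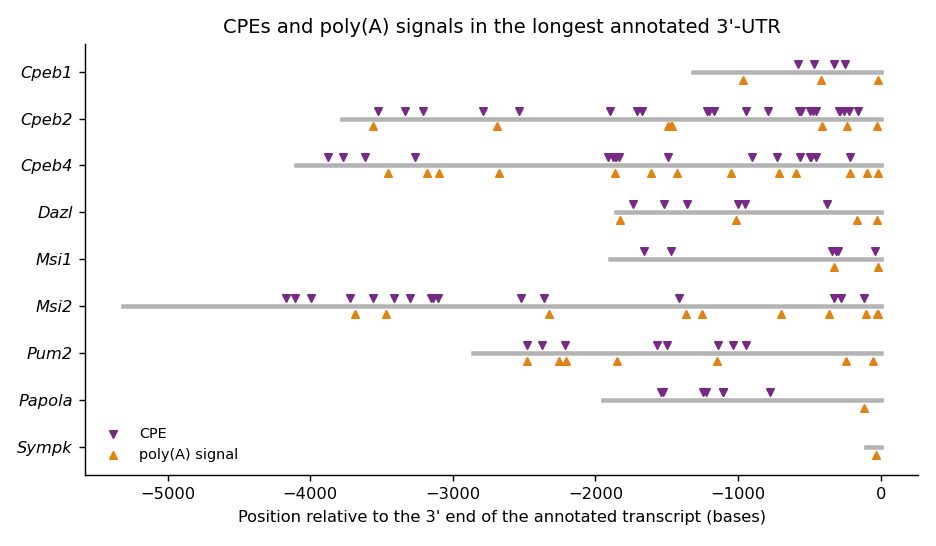
Positions of CPEs (purple triangles) and poly(A) signals (orange triangles) along the longest annotated 3'-UTR of the 9 genes (grey lines), in bases from the 3' end. Cpeb2 and Cpeb4 carry 24 and 17 CPEs, Cpeb1 carries 4 in its distal part, and the 100-base 3'-UTR of Sympk carries none.

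Between 37817382 and 59688578 reads fell on listed genes per HA library, and between 38276453 and 60052814 per input library. A floor of 3 reads was 0.0388 to 0.111 CPM in HA and 0.0435 to 0.0788 CPM in input, for counting error only. The old HA libraries were the least alike: the median gene differed 3.30-fold between the 2 old HA libraries, 1.81-fold between the young, and 1.83-fold and 1.57-fold between old and young input libraries. Oocyte markers were present for 11 of 12 genes in both tables (summed level 11687 to 19634 CPM in HA, 9174 to 10426 CPM in input), with Figla in neither. Of 18 cumulus and granulosa markers, 5 were in the HA table, at a summed 100.1 to 143.7 CPM in old and 198.9 to 209.3 CPM in young libraries, with Amh, Foxl2 and Lhcgr not listed. In input, 10 were listed, at 157.4 and 431.1 CPM in old and 208.2 and 309.8 CPM in young libraries. None of 11 blood and immune markers was listed in either table, and of 6 oviduct markers only Epcam was, at 57.6 and 0.963 CPM in old and 0.0581 and 3.29 CPM in young input libraries. The part of such other cells in the results was not tested. CPM are shares of a library, so that less mRNA per oocyte and fewer oocytes carrying it cannot be told apart.

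Ages were compared with limma on log2(CPM + 1), a scale that understates the difference of low genes, and p-values were adjusted by the Benjamini-Hochberg method over every gene in a table. With 2 pools against 2, an exact permutation test reaches no two-sided p below 0.333, and the p-values given are those of the fit across all genes. None of the genes of the set passed an adjusted p of 0.05 in HA, input or TE, where the share of all genes that did was 0.00%, 0.00950% and 0.00%. On the recovered reads, 0 genes of the set passed in HA in edgeR's quasi-likelihood test, edgeR's likelihood ratio test or DESeq2, which called 0, 295 and 508 of all genes there. In HA, 5 of 7 genes were higher and 2 lower in old oocytes, with a median log2 difference of 0.31 against -0.14 over all genes. Only Cpeb4 had an unadjusted p under 0.05 in HA, a level that 14.7% of all genes reached. In input, 5 of 8 were higher and 3 lower (median 0.12 against -0.03), and 0 reached an unadjusted p under 0.05, against 6.18% of all genes. In TE, 5 of 7 were higher and 2 lower (median 0.32 against -0.10), and 0 reached an unadjusted p under 0.05, against 6.56% of all genes.

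Both old pools lay above both young pools in HA for Cpeb4 and Pum2, an order seen in 17.2% of all genes, and below them for Cpeb1 and Sympk, an order seen in 24.7%. In input, Msi2 and Pum2 lay above (16.4% of all genes) and Papola below (18.9%). In TE, Cpeb4, Papola and Pum2 lay above (16.8%) and Cpeb1 below (22.7%). In a set of 7 or 8 genes, such shares already amount to a gene or more, so these counts say little about the set.

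**Figure D2:**
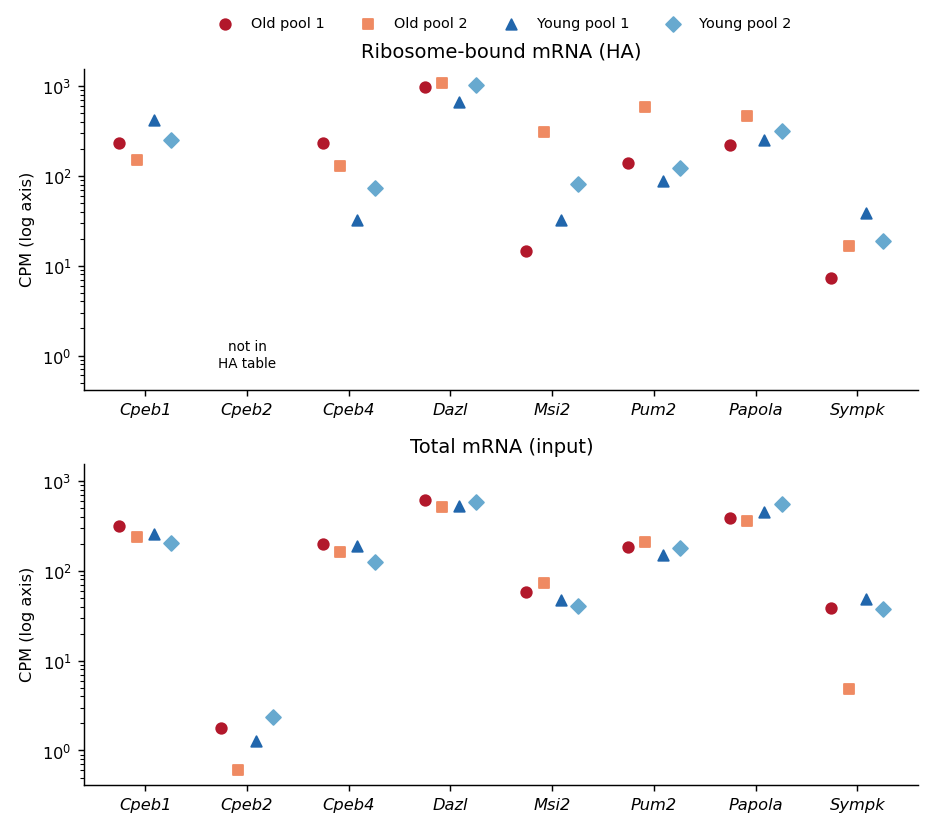
Level of each gene in CPM (log axis) in ribosome-bound mRNA (top) and total mRNA (bottom), with 1 point for each of the 2 old and 2 young pools. In HA the old pools lie above the young for Cpeb4 and Pum2 and below for Cpeb1 and Sympk, whereas the input points of Cpeb1, Cpeb4 and Dazl overlap between ages.

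Cpeb1 (ENSMUSG00000025586.17, chromosome 7 of GRCm38, 81347026 to 81455465), which encodes the CPE-binding protein that starts cytoplasmic polyadenylation at meiotic resumption, had 228.9 and 151.5 CPM in old and 423.0 and 251.0 CPM in young HA libraries. Both old values lay below both young values, with 228.9 and 251.0 CPM close to each other. The old mean was 190.2 ± 54.8 CPM and the young mean 337 ± 122 CPM (SD, n = 2 each), a log2 difference of -0.80 (standard error 0.51, 95% interval -2.03 to 0.42, adjusted p = 0.583 in limma). Under the alternatives run, it lay between -0.43 (without Young pool 1) and -1.44 (with libraries rescaled to an equal sum). In input, Cpeb1 had 316.6 and 238.6 CPM in old and 258.0 and 201.0 CPM in young libraries, which overlapped. The input log2 difference was 0.27 (standard error 0.30, adjusted p = 0.927 in limma). Leaving out Old pool 1 gave 0.067, and leaving out Old pool 2 gave 0.47. TE of Cpeb1 was 0.679 ± 0.062 in old and 1.44 ± 0.276 in young pools (SD, n = 2 each). The log2 TE difference was -1.07 with a 95% interval of -2.98 to 0.83 (adjusted p = 0.807 in limma). Ranked by TE among 8537 genes, Cpeb1 stood at the 78.7th percentile in young and at the 41.2nd percentile in old oocytes.

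Cpeb4 (ENSMUSG00000020300.14, chromosome 11, 31872211 to 31935634), a paralog whose own mRNA is known to be activated through CPEs, had the reverse order. Its HA level was 229.6 and 129.8 CPM in old and 32.0 and 73.4 CPM in young libraries, so that all old values were above all young ones. The old mean was 179.7 ± 70.6 CPM and the young mean 52.7 ± 29.3 CPM (SD, n = 2 each), a log2 difference of 1.81 (standard error 0.71, 95% interval 0.11 to 3.51), with an unadjusted p of 0.0397 and an adjusted p of 0.322 in limma. On the recovered reads the adjusted p was 0.396 in edgeR's quasi-likelihood test and 0.234 in DESeq2. The HA difference was 1.22 without Young pool 1 (unadjusted p = 0.206 in limma) and 2.40 without Young pool 2. In input, Cpeb4 had 198.2 and 162.3 CPM in old and 186.8 and 123.6 CPM in young libraries, and the ages overlapped (log2 difference 0.24, adjusted p = 0.950 in limma). TE was 1.16 and 0.800 in old and 0.171 and 0.594 in young pools, all old values above all young ones (log2 difference 1.57, 95% interval -1.21 to 4.35, adjusted p = 0.806 in limma). The young pools differed more from each other than the old ones did. Without Young pool 1 the TE difference was 0.69, and without Young pool 2 it was 2.46. By TE, Cpeb4 stood at the 14.8th percentile in young and the 52.7th percentile in old oocytes.

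Cpeb2 (ENSMUSG00000039782.14, chromosome 5, 43233170 to 43289724), a further paralog of the CPEB4 type, was near the lower end of the input table. Its input level was 1.76 and 0.602 CPM (96 and 30 reads) in old and 1.28 and 2.37 CPM (88 and 90 reads) in young libraries. The ages overlapped, with a log2 difference of -0.40 and a 95% interval of -2.26 to 1.47 (adjusted p = 0.975 in limma). The difference was -0.0023 without Old pool 2 and -0.79 without Old pool 1. The span of Cpeb2 overlaps 3 other annotated genes, of which Gm7854 is in the tables. Counting did not use strand, so the reads of Cpeb2 are uncertain. Cpeb3, the remaining paralog, is outside the 9 genes. It had 176.4 and 88.4 CPM in old and 106.9 and 155.3 CPM in young HA libraries, and 171.0 and 177.0 CPM in old and 187.6 and 135.8 CPM in young input libraries. Its ages overlapped in both fractions (HA log2 difference -0.04, adjusted p = 0.993 in limma).

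The balance of paralogs within a library needs no scaling between libraries, and it was computed after the values had been seen. In HA, the ratio of Cpeb4 to Cpeb1 CPM was 1.00 and 0.857 for old and 0.0756 and 0.292 for young oocytes, with the ages apart. This order follows from the separate values, since Cpeb4 was higher and Cpeb1 lower in both old HA pools. In input, the ratio was 0.626 and 0.680 for old and 0.724 and 0.615 for young oocytes, and these overlapped. The log2 difference of the ratio between ages was 2.64 in HA and -0.03 in input, and the exact permutation p in HA was 0.333, the smallest that 4 pools can give. Per kb of exon, Cpeb4 was 31.5% and 29.8% of the sum of Cpeb1, Cpeb3 and Cpeb4 in old HA libraries and 4.17% and 12.5% in young ones. Cpeb1 was 47.7% and 52.8% of this sum in old and 83.8% and 64.8% in young HA libraries. In input, Cpeb4 was between 22.6% and 25.2% and Cpeb1 between 53.0% and 58.2% in all 4 pools.

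**Figure D3:**
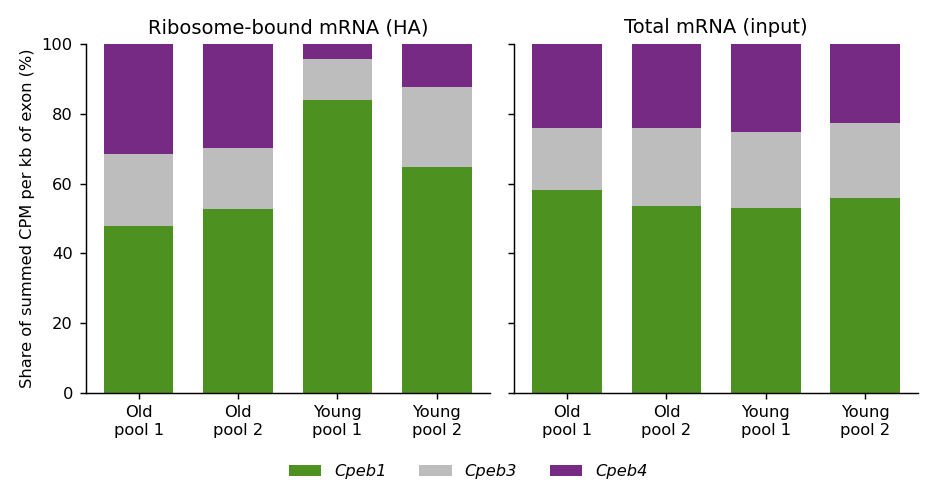
Share of Cpeb1, Cpeb3 and Cpeb4 in their summed CPM per kb of exon (percent) in each pool, for ribosome-bound mRNA (left) and total mRNA (right). The Cpeb4 share in HA is 29.8% to 31.5% for old and 4.17% to 12.5% for young pools, and the input bars are nearly alike.

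Dazl (ENSMUSG00000010592.8, chromosome 17, 50279395 to 50293636) encodes a germ cell RNA-binding protein whose mRNA is itself a CPEB1 target and which promotes translation together with CPEB1. Its HA level was 980.7 and 1073 CPM in old and 670.9 and 1020 CPM in young libraries, and its input level was 606.7 and 513.6 CPM in old and 531.5 and 579.0 CPM in young libraries. Both fractions overlapped between ages, and the input means of 560.2 ± 65.9 and 555 ± 33.6 CPM (SD, n = 2 each) were nearly equal. The log2 difference was 0.31 in HA (95% interval -0.60 to 1.22, adjusted p = 0.827 in limma) and 0.01 in input (95% interval -0.54 to 0.55, adjusted p = 0.996 in limma). Without Young pool 1 the HA difference was 0.0085, and without Young pool 2 it was 0.61. With libraries rescaled to an equal sum the HA difference was -0.33, where the median over all genes was -0.68, and after quantile normalization it was -0.42, where that median was -0.05. TE was 1.62 and 2.09 in old and 1.26 and 1.76 in young pools, which overlapped.

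Msi2 (ENSMUSG00000069769.13, chromosome 11, 88339382 to 88718513), a Musashi protein that binds 3'-UTRs of maternal mRNAs, was the gene whose old replicates differed most in HA. Its HA level was 14.5 and 305.8 CPM (612 and 8273 reads) in old and 32.2 and 81.5 CPM in young libraries, so that the old values lay on both sides of the young ones. This 21.03-fold difference between old replicates was reached or exceeded by 25.4% of all genes of the HA table. The log2 difference between ages was 0.40 (95% interval -2.97 to 3.76, adjusted p = 0.959 in limma). It was 2.55 without Old pool 1, -1.75 without Old pool 2 and -0.26 without Young pool 1. In input, Msi2 had 58.2 and 72.9 CPM in old and 46.8 and 40.2 CPM in young libraries, all old values above all young ones (log2 difference 0.58, 95% interval -0.46 to 1.61, adjusted p = 0.888 in limma). Its span overlaps 3 other annotated genes, 2 of them on the other strand, and none of them is in the tables.

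Pum2 (ENSMUSG00000020594.14, chromosome 12, 8674134 to 8752581), a Pumilio protein that mostly represses the mRNAs it binds, had 137.5 and 588.0 CPM in old and 88.3 and 121.8 CPM in young HA libraries. All old values were above all young ones, but Old pool 1 was only slightly so. The log2 difference was 1.45 (standard error 0.76, 95% interval -0.36 to 3.25), with an unadjusted p of 0.0996 and an adjusted p of 0.460 in limma. The size of this difference depended on Old pool 2. Without Old pool 2 it was 0.40, and without Old pool 1 it was 2.49. Each of these fits rests on a single old library and assumes that this library varies like the young ones. In edgeR's quasi-likelihood test on the recovered reads, the unadjusted p was 0.0464 and the adjusted p was 0.364. In input, Pum2 had 185.0 and 207.8 CPM in old and 150.4 and 178.8 CPM in young libraries, also without overlap (log2 difference 0.26, 95% interval -0.43 to 0.94, adjusted p = 0.932 in limma). TE was 0.743 and 2.83 in old and 0.587 and 0.681 in young pools, with a log2 difference of 1.19 (adjusted p = 0.840 in limma) that was 2.15 without Old pool 1 and 0.23 without Old pool 2.

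Papola (ENSMUSG00000021111.15, chromosome 12, 105784694 to 105838944), the poly(A) polymerase, had 382.7 and 354.9 CPM in old and 455.2 and 557.4 CPM in young input libraries. Both old values were below both young ones, and the means were 369 ± 19.6 CPM in old and 506 ± 72.3 CPM in young oocytes (SD, n = 2 each). The input log2 difference was -0.45 (standard error 0.25, 95% interval -1.02 to 0.12, adjusted p = 0.792 in limma), and it was between -0.64 and -0.30 under all alternatives run. In HA, Papola had 220.4 and 467.4 CPM in old and 250.9 and 313.3 CPM in young libraries, with the old values on either side of the young ones. The HA log2 difference was 0.19 (95% interval -1.05 to 1.44, adjusted p = 0.942 in limma), and it was -0.35 without Old pool 2, -0.44 with libraries rescaled to an equal sum (median of all genes -0.68) and -0.46 after quantile normalization. TE was 0.576 and 1.32 in old and 0.551 and 0.562 in young pools, so that Old pool 1 lay just above the young pools and Old pool 2 well above them. The log2 TE difference was 0.64 (95% interval -1.70 to 2.99, adjusted p = 0.909 in limma), and it was 0.05 without Old pool 2 and 1.24 without Old pool 1.

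Sympk (ENSMUSG00000023118.15, chromosome 7, 19024377 to 19054618), the scaffold of the polyadenylation complex, had the lowest mean CPM over the pools of the genes listed in both tables. In Young pool 1 it was above Cpeb4 and Msi2 in HA and above Msi2 in input. Its HA level was 7.27 and 16.7 CPM (306 and 451 reads) in old and 38.5 and 18.8 CPM (2979 and 1069 reads) in young libraries. Old values were below young values, with 16.7 and 18.8 CPM close to each other. The log2 difference was -1.21 (standard error 1.28, 95% interval -4.26 to 1.84, adjusted p = 0.790 in limma). With 1 pool left out, it lay between -0.66 (without Old pool 1) and -1.76 (without Old pool 2). In input, Sympk had 38.4 and 4.87 CPM in old and 49.1 and 37.6 CPM in young libraries, with Old pool 2 far below the other 3 pools. This 7.89-fold difference between old input libraries was reached or exceeded by 19.1% of genes, and the input log2 difference of -1.53 had a 95% interval of -3.65 to 0.59. It was -0.16 without Old pool 2 and -2.90 without Old pool 1. TE was 0.189 and 3.42 in old and 0.784 and 0.502 in young pools, so that no direction held. The log2 TE difference of 0.32 became -1.60 without Old pool 2 and 2.24 without Old pool 1.

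**Figure D4:**
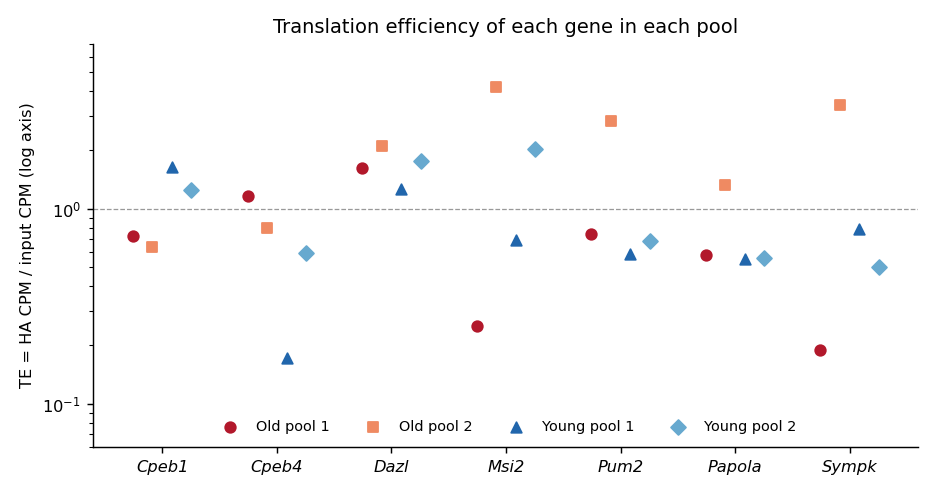
TE of each gene present in both tables (HA CPM over input CPM, log axis), with 1 point per pool. The dashed line marks a TE of 1. Cpeb1 is lower in both old pools, at 0.635 and 0.723 against 1.25 and 1.64, and Cpeb4 is higher, at 0.800 and 1.16 against 0.171 and 0.594, while Msi2 and Sympk spread most between the old pools.

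HA and input were normalized separately, so a TE of 1 is no fixed reference, and TE was compared between ages and by rank within an age. In young oocytes, mean TE put Dazl at the 80.4th, Cpeb1 at the 78.7th and Msi2 at the 76.5th percentile of all genes, and Sympk, Pum2 and Papola at the 37.1st, 36.5th and 30.1st. In old oocytes, Msi2, Dazl, Sympk and Pum2 stood between the 71.3rd and the 77.9th percentile, and Papola at the 51.5th. By the mean of the 2 pools, Cpeb1, at the 41.2nd percentile, was the lowest of the 7 in old oocytes and Cpeb4 the lowest in young oocytes. In single pools this order did not hold throughout, since Sympk, Msi2 and Papola were below Cpeb1 in Old pool 1, and Sympk and Papola were below Cpeb4 in Young pool 2. Between the 2 old pools, TE differed 16.8-fold for Msi2 and 18.1-fold for Sympk, against 3.74-fold for the median of all genes.

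**Figure D5:**
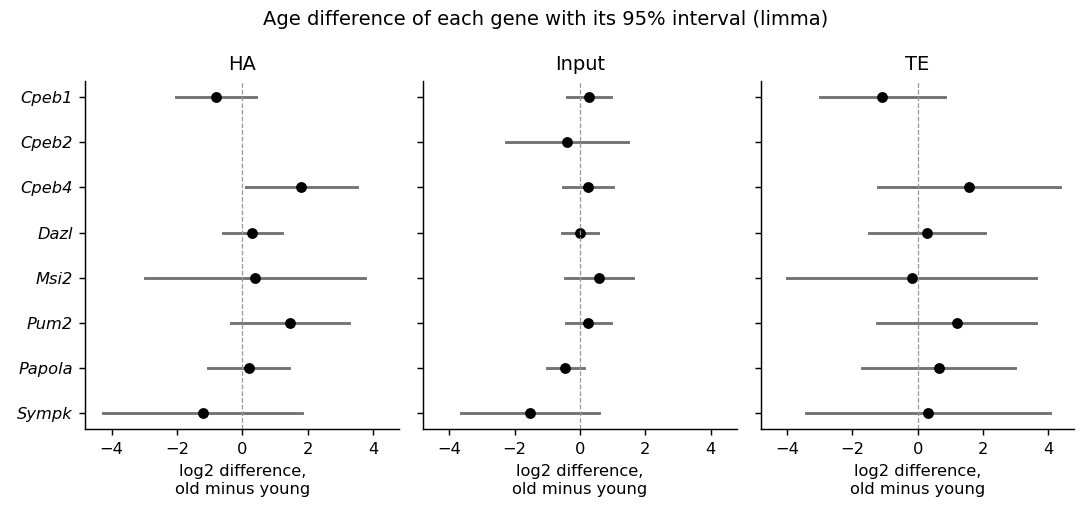
Log2 difference between old and young oocytes in HA, input and TE for each gene (points) with its 95% interval from limma (bars, n = 2 pools per age). The interval of Cpeb4 in HA, 0.11 to 3.51, lies above 0, and all others include 0. Cpeb2 is shown for input alone.

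Levels of different genes were compared per kb of exon. The libraries were counted over whole gene bodies, introns included, so long introns can add to these values. In input, Dazl was highest, at 146 ± 11.2 CPM per kb (SD over 4 pools), above Papola at 66.3 ± 13.7 and Cpeb1 at 60.5 ± 11.5, which overlapped. Cpeb4 and Pum2 followed at 26.3 ± 5.18 and 24.9 ± 3.25 CPM per kb and also overlapped. Msi2 (5.24 ± 1.38), Sympk (3.08 ± 1.82) and Cpeb2 (0.192 ± 0.096) were lowest, and Msi2 and Sympk overlapped. In HA, Dazl was again highest, at 245 ± 47.3 CPM per kb, and Cpeb1 stood at 62.9 ± 27.3. Sympk had the lowest mean, at 1.93 ± 1.25, and overlapped Msi2 at 10.4 ± 12.9. Cpeb1 was above Cpeb4 per kb in all 4 HA libraries. Cpeb1 had 80.4 ± 29.0 and Cpeb4 had 8.27 ± 4.60 CPM per kb in young HA libraries (SD, n = 2), against 45.4 ± 13.1 and 28.2 ± 11.1 in old ones.

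The genes were set beside the wider pathway. Of the other polyadenylation machinery, 20 genes were in the HA table: 8 were higher and 12 lower in old oocytes (median log2 difference -0.35) against -0.14 over all genes. Of these, 1 higher and 3 lower ones reached an unadjusted p under 0.05, as did 14.7% of all genes. The 3 lower ones were Cpsf3, Cpsf4 and Ppp1ca, each under 1 CPM in both old HA libraries. They are listed in HA through the young libraries alone, so the listing rule itself set their direction. In input, 0 of 21 reached that level (6.18% of all genes). In TE 2 of 20 did (6.56% of all genes), both lower and both among these 3. Cpsf3, the endonuclease that cleaves pre-mRNA at the poly(A) site, had 0.428 and 0.850 CPM in old and 42.4 and 43.6 CPM in young HA libraries, while its input level was 34.8 and 35.3 CPM in old and 63.8 and 59.7 CPM in young libraries. Both fractions were lower in old oocytes without overlap, and the HA log2 difference was -4.76 (standard error 1.44, adjusted p = 0.297 in limma). Papd7, a non-canonical poly(A) polymerase, had 645.9 and 702.0 CPM in old and 336.0 and 346.7 CPM in young HA libraries (log2 difference 0.98, adjusted p = 0.321 in limma). Cpsf4, a CPSF subunit that binds the poly(A) signal, and Ppp1ca, a phosphatase subunit that associates with the complex, had 0.111 CPM or less in old HA libraries, at or below the floor of 3 reads, and 2.38 to 8.67 CPM in young ones.

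Of 16 CPEB partners and modifiers in the HA table, 8 were higher and 8 lower in old oocytes (median 0.03 against -0.14 over all genes), with 1 in each direction at an unadjusted p under 0.05, a level that 14.7% of all genes reached. In input, 14 of 16 were higher (median 0.17 against -0.03 over all genes), with 0 at that level (6.18% of all genes). Ncoa2, a nuclear receptor coactivator placed on the list, had 736.9 and 920.5 CPM in old and 343.3 and 403.1 CPM in young HA libraries. Eif4e1b, the oocyte cap-binding protein of the CPEB repressive complex, had 967.1 and 405.2 CPM in old and 355.0 and 163.3 CPM in young ones. Tob2, an antiproliferative protein that links CPEBs to deadenylases, had 56.5 and 57.0 CPM in old and 158.2 and 126.0 CPM in young ones. Cdk1, the kinase of M-phase entry, had 0.855 and 0.444 CPM in old and 9.14 and 20.7 CPM in young HA libraries. Cdk1 too is listed in HA through the young libraries alone, so the listing rule itself set its direction. The adjusted p in limma was 0.297 for Ncoa2, 0.362 for Eif4e1b, 0.389 for Tob2 and 0.325 for Cdk1.

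Of 6 poly(A)-binding protein genes in the HA table, 4 were higher and 2 lower in old oocytes (median 0.37 against -0.14 over all genes), with 1 at an unadjusted p under 0.05 (14.7% of all genes). This was Paip1, which encodes a protein that joins poly(A)-binding protein to initiation factors. It had 725.1 and 839.0 CPM in old and 327.8 and 345.9 CPM in young HA libraries, and its TE was 3.30 and 2.79 in old and 1.41 and 1.31 in young pools (HA log2 difference 1.21, adjusted p = 0.297 in limma). Paip2b, an inhibitor of poly(A)-binding protein, had 159.4 and 137.4 CPM in old and 87.9 and 107.9 CPM in young HA libraries, and Pabpc1 had at most 4.63 CPM in any HA library. Of 12 other regulators that bind 3'-UTRs, 5 were higher and 7 lower in HA (median -0.11), and 0 had an unadjusted p under 0.05 (14.7% of all genes). Igf2bp3 had 113.9 and 125.4 CPM in old and 53.5 and 35.2 CPM in young HA libraries. Elavl1, which stabilizes AU-rich mRNAs, had 77.4 and 85.3 CPM in old and 41.4 and 39.7 CPM in young ones, and the germ cell repressor Nanos1 had 3.45 and 5.73 CPM in old and 11.3 and 25.4 CPM in young ones.

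Of 12 mRNAs known as targets of CPEB1 or DAZL in the HA table, 11 were higher and 1 lower in old oocytes (median 0.57 against -0.14 over all genes), with 3 at an unadjusted p under 0.05 (14.7% of all genes), all higher, and 0 past the adjustment in limma. This list includes Dazl, and the study took up Golph3, Il7, Thumpd1 and Tpx2 with RNA-Seq results known, so it is not independent evidence of a direction. In TE, 9 were higher and 3 lower (median 0.60 against -0.10 over all genes), with 0 at an unadjusted p under 0.05 (6.56% of all genes). Ccnb1, the cyclin B1 mRNA that drives M-phase, had 911.5 and 1194 CPM in old and 470.1 and 545.2 CPM in young HA libraries, and its input means of 327 ± 25.3 and 285 ± 39.4 CPM (SD, n = 2 each) were closer to each other. Its HA log2 difference was 1.04 (standard error 0.38, adjusted p = 0.304 in limma). Tpx2, a spindle assembly factor, had 574.9 and 842.7 CPM in old and 338.0 and 254.2 CPM in young HA libraries, and Plat, the tissue plasminogen activator, had 2113 and 742.3 CPM in old and 605.4 and 227.6 CPM in young ones. Golph3, a Golgi protein, was the lower one, with 92.8 and 38.8 CPM in old and 184.4 and 131.1 CPM in young HA libraries, while its input was 424.1 and 373.0 CPM in old and 273.6 and 203.0 CPM in young libraries.

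Among 5305 genes with a mean of at least 10 CPM in each table, those whose centred log2 profile over the 8 libraries lay closest to that of Cpeb1 included Rnf34, Nat10, Tex2 and Ptpn4. Their distances were 0.472 to 0.640, against a median of 2.34 over all these genes. Rnf34, a ubiquitin ligase gene and the closest, had 188.6 and 116.5 CPM in old and 355.7 and 201.3 CPM in young HA libraries, and 160.2 and 113.6 CPM in old and 180.5 and 129.9 CPM in young input libraries. Its TE was 1.10 ± 0.107 in old and 1.76 ± 0.297 in young pools (SD, n = 2 each). Nat10, an RNA acetyltransferase gene, had a TE of 0.404 ± 0.169 in old and 0.795 ± 0.128 in young pools, and Ptpn4 had 0.393 ± 0.0958 in old and 0.789 ± 0.0734 in young pools. These genes were picked for their likeness to Cpeb1 over the same libraries, so their values carry no test.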

How the data were processed

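Per the labels, and in the Methods, 8 libraries were made by NuGEN amplification with random and poly(T) primers. The authors trimmed reads with Trimmomatic 0.36, aligned them to GRCm38 with HISAT2 and counted them over gene bodies of GENCODE release M11 with HTSeq, without strand. The deposited signal values are CPM after TMM normalization by the authors, set separately for HA and input. The Methods state a filter of 10 CPM, whereas the tables hold genes with at least 1 CPM in 2 or more libraries. No per-sample column was left out (0).

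Every value was a whole multiple (within 0.01 reads) of 1 read, so reads were recovered. Ages were tested two-sided on log2(CPM + 1) in limma, by lmFit and a trended eBayes, and Benjamini-Hochberg adjusted p-values (over each whole table) under 0.05 were called. TE was tested on log2(HA CPM + 1) minus log2(input CPM + 1) per pool. Count tests on the recovered reads with edgeR and DESeq2, other pseudocounts, filters and scalings, and leaving out each pool were alternatives. The labels name the pools replicates, and p-values measure the spread between these pools.

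The 9 genes and the pathway lists were chosen with earlier results of these data known. Of each list, up to 4 genes without overlap between ages in HA and with the smallest p were named, with the 5 genes most like Cpeb1, of which 1 is not reported here. Gene positions and 3'-UTRs came from GENCODE release M21, whose identifiers covered 99.7% of HA and 99.8% of input genes. Software was Python 3.11.15 with pandas 2.3.3 and matplotlib 3.10.9, and R 4.3.3 with DESeq2 1.42.0, edgeR 4.0.16 and limma 3.58.1.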

Additional observations from a re-analysis of the deposited data

How the results depend on the processing

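For 21 differences of single genes (all but the TE difference of Cpeb1), 18 alternative settings gave 328 values. Of these values, 304 kept their direction and 24 reversed. With every pool kept, no gene of the set passed the threshold in HA under any alternative. Without Old pool 1 the Pum2 difference in HA was 2.49. That fit rests on a single old library and assumes that this library varies like the young ones. Whether a gene passes there therefore says little about that gene, and only the size is given. The Cpeb1 log2 TE difference stayed between -1.52 and -0.88 and never passed. Cpeb4 in HA stayed between 1.18 and 2.40. With libraries rescaled to an equal sum, the direction reversed for Dazl (-0.33), Papola (-0.44) and Msi2 (-0.23) in HA, Dazl in input (-0.18), and Dazl (-0.15) and Sympk (-0.11) in TE. This scaling moved the median of all genes from -0.14 to -0.68 in HA, from -0.03 to -0.19 in input and from -0.10 to -0.48 in TE, and each of these genes stayed above that median. After quantile normalization it reversed for Dazl (-0.42), Papola (-0.46) and Msi2 (-0.0) in HA, Cpeb2 (0.20) and Dazl (-0.13) in input, and Dazl in TE (-0.28). Scaling to the median ratio gave 0.0086 for Msi2 in TE. edgeR's quasi-likelihood interaction gave -0.26 for Sympk and 0.90 for Msi2 in TE. Leaving out 1 pool gave ranges across 0 for Papola (-0.35 to 0.74) and Msi2 (-1.75 to 2.55) in HA, Cpeb4 (-0.058 to 0.53) and Dazl (-0.11 to 0.13) in input, and Sympk (-1.60 to 2.24) and Msi2 (-2.17 to 1.81) in TE. The cause of these reversals was not tested. Cpeb2 has no adjusted p in DESeq2 and could not be fitted under the filters of 10 CPM.

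Old and young pools share only a replicate number, with deviations of same-numbered pools correlated at 0.08 in HA and 0.03 in input. With the replicate block, the Cpeb1 log2 TE difference was -1.07 (adjusted p = 0.886 in limma) and 0 genes of the set passed in any comparison. The number of all genes called in HA went from 0 to 9. With 2 pools per age, 95% intervals as wide as those of Msi2 and Sympk limit what these data can show.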

Other observations

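The genes whose profile over the 8 libraries lay closest to that of Cpeb4 were looked up after its values had been seen, by the same measure as for Cpeb1, and carry no test. Among 5305 genes they were Shroom4, Ptbp3, Riok1, Trim60 and Vapa, at distances of 0.532 to 0.877 against a median of 2.76. Shroom4, which encodes an actin-associated protein, had 551.8 and 297.1 CPM in old and 109.6 and 223.3 CPM in young HA libraries, and 257.8 and 216.0 CPM in old and 231.4 and 195.8 CPM in young input libraries. Trim60 had 1687 and 1227 CPM in old and 346.1 and 562.2 CPM in young HA libraries, and a TE of 1.30 ± 0.288 in old and 0.479 ± 0.0952 in young pools (SD, n = 2 each).

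Other ratios within a library, also chosen after the values had been seen, were taken against Cpeb1. Dazl over Cpeb1 CPM in HA was 4.28 and 7.09 for old and 1.59 and 4.06 for young pools. In input, it was 1.92 and 2.15 for old and 2.06 and 2.88 for young pools. Pum2 over Cpeb1 CPM in HA was 0.601 and 3.88 for old and 0.209 and 0.485 for young pools. In input, it was 0.584 and 0.871 for old and 0.583 and 0.890 for young pools. In HA both of these ratios were higher in both old pools, and in input the ages overlapped. The exact permutation p was 0.333 for each in HA, the smallest possible with 4 pools. Cpeb1 was itself lower in both old HA pools, which raises ratios to it there, and Dazl alone overlapped between ages in HA. The share of all genes with such an order against Cpeb1 was not computed. Papola over Cpeb1 CPM had the other pattern. In HA it was 0.963 and 3.09 for old and 0.593 and 1.25 for young pools, which overlapped, and in input it was 1.21 and 1.49 for old and 1.76 and 2.77 for young pools, lower in both old pools.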
